A study of Mus musculus with 10 samples.

Results

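Rhox5, Rhox6 and Rhox9 are reproductive homeobox genes of the X chromosome. They were taken as 3 named genes, by every probe that carries the name on the array or through its accession, which gave 1 probe each and 3 of the 41174 probes (28786 gene names) of the study. The 3 names were chosen by earlier log2 levels and differences of these same arrays, with the deciding contrast not stated, so every difference of theirs between siRNA groups is given as a description with a standard error and without a p-value. All 3 genes were among the 20663 genes that passed the filter on dim probes, and each was well above background on 10 of 10 arrays. The filter therefore removed no member.

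The cells were J1, a mouse embryonic stem cell line, and small interfering RNAs (siRNAs) were transfected 96 hours (day 4) before the RNA was taken. There were 5 groups: siRNA to Ino80, to Ino80b, to Ino80c, to Ino80e, and a non-targeting siRNA (NT). Each group held 2 arrays, which the series' design text calls biological replicates. Transient siRNA lowers a transcript without removing the gene, all 5 groups come from the same line, and all went through transfection. Ino80 encodes the ATPase of INO80, a complex that moves nucleosomes with the energy of ATP, and the other 3 targets encode accessory subunits.

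Rhox genes encode homeodomain transcription factors and lie together in a cluster on the mouse X chromosome. They are known mainly for roles in testis, ovary, epididymis and placenta. In embryonic cells the promoters of several of them are known to be kept silent by DNA methylation, which is laid down by Dnmt3a and Dnmt3b and accompanied by methylation of histone H3 at lysine 9. Rhox5, formerly called Pem, is the founding member, is expressed in embryonic stem cells, placenta and Sertoli cells, and has a distal and a proximal promoter. Rhox6 and Rhox9, formerly called Psx1 and Psx2, are related to each other and were described in placenta and germ cells.

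The sequences below are those of the probes that carry the values of the 5 Rhox genes tested, members first, as given in the scanner files. They show what was hybridised, and that the probes differ in sequence. Whether a probe also binds the transcript of another Rhox gene was not tested.
Rhox5: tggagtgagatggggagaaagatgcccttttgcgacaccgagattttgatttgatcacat
Rhox6: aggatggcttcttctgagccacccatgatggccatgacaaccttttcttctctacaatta
Rhox9: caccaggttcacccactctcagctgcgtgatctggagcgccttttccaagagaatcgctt
Rhox4e: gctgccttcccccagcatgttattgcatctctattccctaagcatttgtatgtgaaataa
Rhox2a: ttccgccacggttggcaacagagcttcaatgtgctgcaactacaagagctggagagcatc

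Each probe is 60 bases long. In the files' build, mm7, the Rhox6 probe lies at chrX:32922020-32922079 on the plus strand and the Rhox9 probe at chrX:32993222-32993281 on the minus strand, and no position is given for the Rhox5 probe. Whether these positions are coding or untranslated sequence was not analysed here. Slid along each other without gaps, the member probes matched at no more than 20 bases (Rhox9 with Rhox5 or Rhox6) or 23 bases (Rhox5 with Rhox6), with no shared run over 7 bases. The highest match of any member with another Rhox probe was 27 of 60 bases, between Rhox6 and Rhox3a, with a longest run of 8. RefSeq (GRCm38.p6, used for names and gene order) lists 1 protein-coding copy each of Rhox5, Rhox6 and Rhox9. It lists 8 of Rhox2, 7 of Rhox3 and 8 of Rhox4, so signals of the Rhox2a, Rhox3a and Rhox4e probes may belong to any copy of their family.

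Levels below are log2 of the processed signal relative to the 75th percentile of its array, and differences are on that log2 scale. On each array 27334 to 32512 probes exceeded background clearly, and 2 replicates correlated with r = 0.987 to 0.993 across genes, which are not independent replicates. Slide 1 held the NT arrays, slide 2 the Ino80 and Ino80b arrays and slide 3 the Ino80c and Ino80e arrays. Slide and NT therefore cannot be told apart, and Ino80 with Ino80b and Ino80c with Ino80e are the only pairs of groups on a shared slide. Relative to NT, the median of all genes was higher by 0.17 in Ino80 cells, 0.13 in Ino80b cells, 0.25 in Ino80c cells and 0.19 in Ino80e cells. These medians moved with the scaling. In the same order they were 0.065, 0.0026, 0.029 and 0.0025 in the authors' deposited table. Quantile normalization gave 0.075, 0.069, 0.090 and 0.082, and normexp background correction 0.078, 0.15, 0.21 and 0.25. The targeted transcript fell by 1.20 ± 0.13 (SE) in Ino80 cells (limma adjusted p = 0.0041), fell by 2.00 ± 0.35 in Ino80b cells (adjusted p = 0.028) and fell by 2.34 ± 0.16 in Ino80c cells (adjusted p = 0.011). In Ino80e cells Ino80e differed by -1.20 ± 0.28 (adjusted p = 0.081), and it was called with normexp (adjusted p = 0.017, the lowest of the alternatives), with the authors' deposited table, with limma's trend and robust prior and with the replicate block. The Ino80b call was lost without 7 of the 10 arrays, among them arrays of other groups, and the Ino80c call without either Ino80c array. Over all alternatives the difference of the targeted transcript ran from -2.24 to -1.35 in Ino80b cells and from -2.49 to -1.98 in Ino80c cells. None of the targeted transcripts was called in a knockdown of another subunit. Ino80b differed by -1.39 ± 0.35 in Ino80e cells (limma adjusted p = 0.089) and by -1.11 ± 0.35 in Ino80c cells (adjusted p = 0.091). In Ino80 cells it differed by 0.29 ± 0.35 (adjusted p = 0.59). With limma at an adjusted p under 0.05, 12.3% of genes were called in Ino80 cells, 6.44% in Ino80b cells, 6.28% in Ino80c cells and 0% in Ino80e cells. Those higher than NT made up 7.49%, 3.76%, 4.69% and 0% of all genes in the same 4 knockdowns, and those lower 4.77%, 2.68%, 1.59% and 0%. At an unadjusted p under 0.05, 5900 genes passed in Ino80e cells, and 1701 were called with limma's trend and robust prior. Of the calls, 61.1%, 58.4% and 74.7% were higher than NT in Ino80, Ino80b and Ino80c cells. With the array median in place of the 75th percentile these shares were 49.2%, 49.1% and 55.9%. In the authors' deposited table they were 59.1%, 38% and 27.8%. Normexp background correction gave 68.9% in Ino80b cells, and quantile normalization gave 54.1% in Ino80c cells.

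Rhox5 was far lower in Ino80 cells than in any other group and highest in Ino80c cells. Its processed signal was 1471 and 1416 intensity units in Ino80 cells. It was 7209 and 5747 units in Ino80b cells and 10497 and 10167 units in Ino80c cells. Ino80e cells had 4374 and 5291 units, and NT cells had 7145 and 5433 units. Neither Ino80 array reached the lowest value of any other group, and the dimmer Ino80 signal was still far above its local background of 65 units.

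On the log2 scale Rhox5 was 0.65 and 0.76 on the Ino80 arrays, 3.20 and 3.03 on the Ino80b arrays, 3.96 and 3.67 on the Ino80c arrays, 2.60 and 2.99 on the Ino80e arrays, and 3.07 and 2.66 on the NT arrays. Group means ran in the order Ino80 (0.70), Ino80e (2.79), NT (2.87), Ino80b (3.12) and Ino80c (3.81). Ino80e and NT overlapped, as did Ino80b and NT, so the order of these 3 groups is not set by the data. Ino80 stood apart below them and Ino80c above them, without overlap. Genes with both Ino80 arrays below all other arrays made up 5.39% of genes tested, and genes with both Ino80c arrays above all other arrays 5.51%.

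The difference of Rhox5 in Ino80 cells was -2.16 ± 0.21 (SE, n = 2 arrays a group), with a 95% interval from -2.65 to -1.68. Its level there was 22.3% of that in NT cells. Relative to the median of all genes the difference was -2.33, and 69 of the 20663 genes were further below NT. In Ino80c cells the difference was 0.95 ± 0.21, a level 1.93 times that of NT cells, or 0.69 above the median of all genes. In Ino80b cells it was 0.25 ± 0.21 and in Ino80e cells -0.07 ± 0.21, with intervals from -0.23 to 0.73 and from -0.55 to 0.41. Without NT replicate 1 the Ino80e difference was 0.13.

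**Figure D1:**
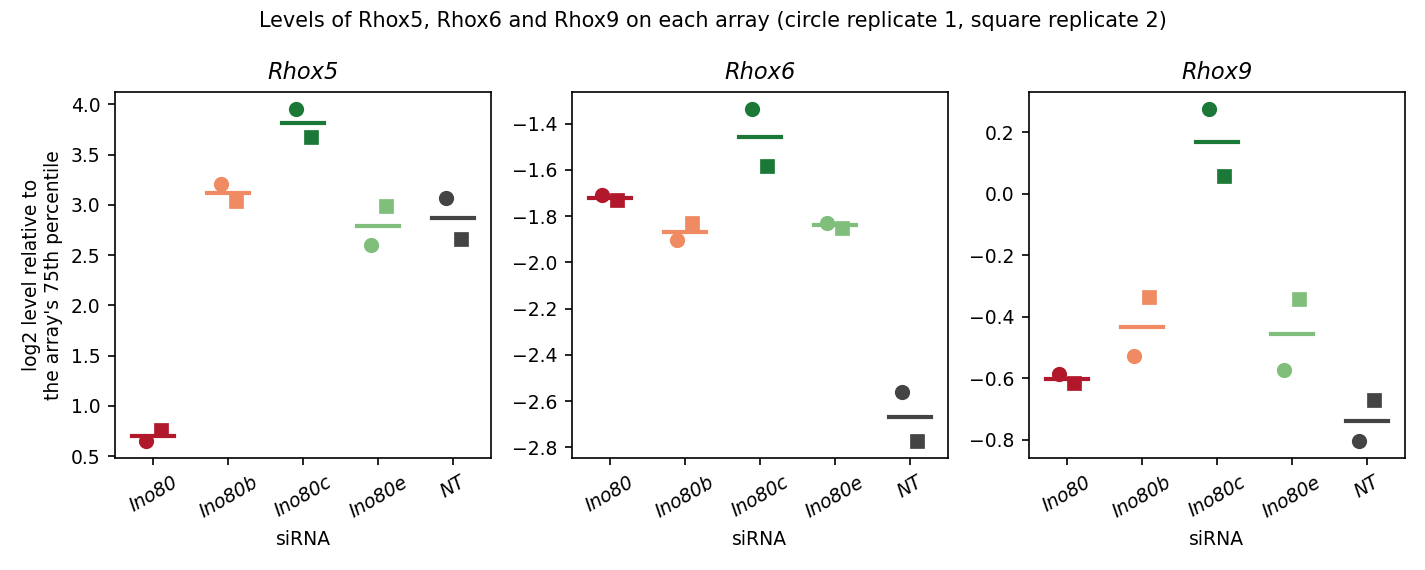
Log2 level of Rhox5, Rhox6 and Rhox9, relative to the array's 75th percentile, on each of 10 arrays; the siRNA groups run along the horizontal axis, points are arrays, bars are means of 2 arrays, and each panel has its own vertical axis. Both Ino80 arrays lie at the bottom for Rhox5 (0.65 and 0.76), all knockdown arrays lie above NT for Rhox6, and both Ino80c arrays are at the top in all 3 panels.

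Rhox6 was higher than NT in all 4 knockdowns. Its processed signal was 287 and 252 units in Ino80 cells, 209 and 197 units in Ino80b cells, 268 and 267 units in Ino80c cells, 203 and 185 units in Ino80e cells, and 144 and 126 units in NT cells. All 8 knockdown arrays lay above both NT arrays. The same held for 19% of the genes tested, so this pattern by itself is common on these arrays.

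The log2 level of Rhox6 was -1.71 and -1.73 on the Ino80 arrays, -1.90 and -1.83 on the Ino80b arrays, -1.34 and -1.58 on the Ino80c arrays, -1.83 and -1.85 on the Ino80e arrays, and -2.56 and -2.77 on the NT arrays. The order of means was NT (-2.67), Ino80b (-1.87), Ino80e (-1.84), Ino80 (-1.72) and Ino80c (-1.46). Ino80b and Ino80e overlapped, and Ino80 stood above both by at most 0.15 ± 0.14, which is about the error of the difference. Against NT the differences were 0.95 in Ino80 cells, 0.80 in Ino80b cells, 1.21 in Ino80c cells and 0.83 in Ino80e cells, each ± 0.14 (SE). Relative to the median of all genes they were 0.78, 0.67, 0.96 and 0.64 in the same 4 knockdowns.

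The Rhox6 spot is dim, with a mean signal of 165 to 296 units over a local background of 47 to 60 units, and its value depended on the treatment of background. Feature Extraction marked its local background as an outlier on 5 arrays, namely both Ino80 arrays, Ino80b replicate 1 and both NT arrays. With normexp background correction the differences were 0.57 (Ino80), 0.54 (Ino80b), 0.85 (Ino80c) and 0.59 (Ino80e). In the authors' deposited table, which has no background subtraction, the same contrasts gave 0.60, 0.45, 0.76 and 0.43. The direction was the same in each of these settings. The part of the background flag in the difference was not tested.

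Rhox9 was higher in Ino80c cells than in every other group. Its processed signal was 625 and 546 units in Ino80 cells, 542 and 556 units in Ino80b cells, 819 and 831 units in Ino80c cells, 485 and 526 units in Ino80e cells, and 486 and 539 units in NT cells. The Ino80c arrays were the brightest, and on this unscaled signal the Ino80e arrays overlapped NT.

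After scaling, Rhox9 was -0.59 and -0.62 on the Ino80 arrays, -0.53 and -0.34 on the Ino80b arrays, 0.28 and 0.06 on the Ino80c arrays, -0.57 and -0.34 on the Ino80e arrays, and -0.81 and -0.67 on the NT arrays. Group means ran NT (-0.74), Ino80 (-0.60), Ino80e (-0.46), Ino80b (-0.43) and Ino80c (0.17). Ino80e and Ino80b overlapped, and after scaling all 8 knockdown arrays lay above both NT arrays, as for Rhox6. The Ino80c difference from NT was 0.91 ± 0.15 (SE), a level 1.87 times that of NT cells and 0.65 above the median of all genes. In Ino80, Ino80b and Ino80e cells the difference was 0.14, 0.31 and 0.28, each ± 0.15, with 95% intervals that include 0. Relative to the median of all genes these 3 values were -0.03, 0.18 and 0.09. In the authors' deposited table Rhox9 differed by 0.14 in Ino80b cells, 0.64 in Ino80c cells and 0.077 in Ino80e cells.

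The 2 comparisons within a slide carry no difference between slides. On slide 2, Rhox5 in Ino80 cells minus Ino80b cells was -2.42 ± 0.21 (SE), which put the Ino80 level at 18.7% of the Ino80b level. Only 6 of 20663 genes had a lower difference in this pair, in which 0.0678% of genes were called. Rhox6 differed by 0.15 ± 0.14 and Rhox9 by -0.17 ± 0.15 on the same slide, and the intervals of both include 0. The lower Rhox5 level of Ino80 cells thus stood without the NT arrays, at -2.22 to -2.44 with other scalings, with the authors' deposited table and with the replicate number as a block.

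On slide 3, Rhox5 in Ino80c cells minus Ino80e cells was 1.02 ± 0.21, Rhox9 was 0.62 ± 0.15 and Rhox6 was 0.38 ± 0.14. None of the 3 pairs overlapped, in a comparison in which arrays of 25.7% of genes lay higher without overlap and 0.0339% of genes were called. Under the same alternatives the differences ran from 1.00 to 1.06 for Rhox5, from 0.55 to 0.62 for Rhox9 and from 0.26 to 0.38 for Rhox6. All 3 genes were thus higher in Ino80c cells against NT and within the slide. Rhox6 had the largest of the 3 differences against NT (1.21, beside 0.95 for Rhox5 and 0.91 for Rhox9) and the smallest within the slide.

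**Figure D2:**
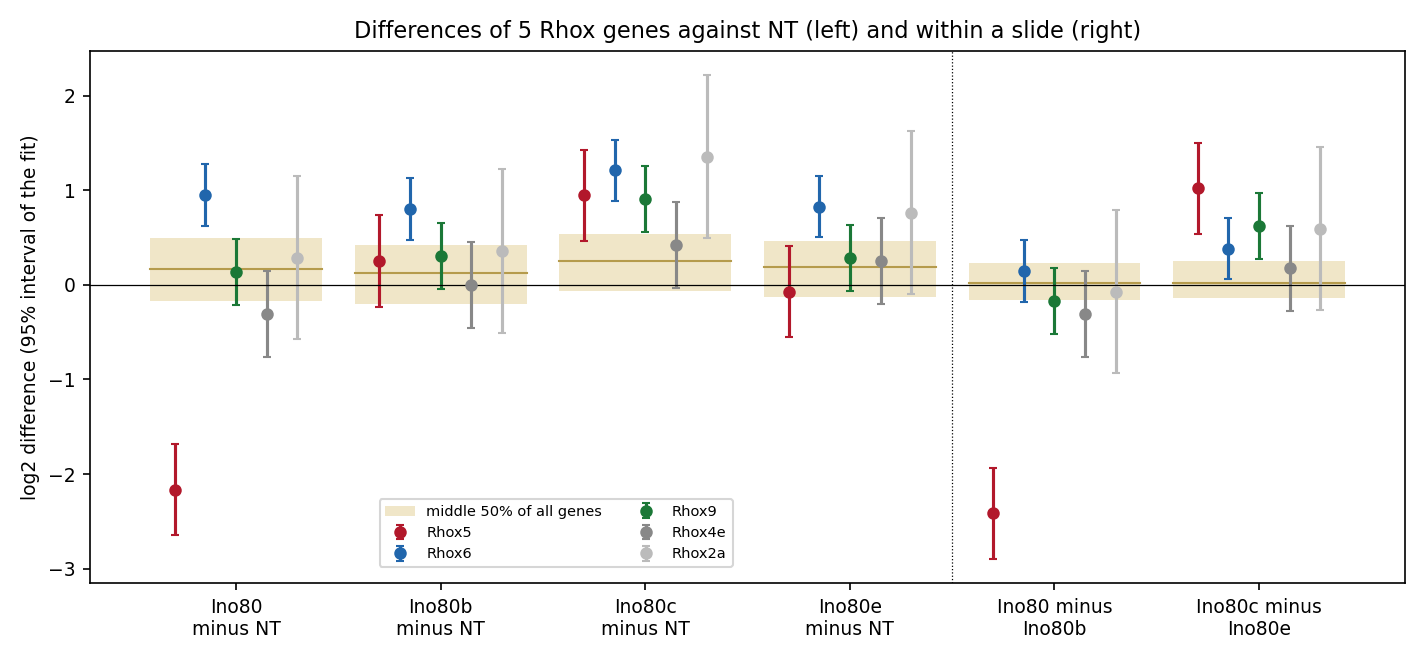
Log2 differences of the 5 Rhox genes tested, with the 95% interval of the fit (n = 2 arrays a group), for 4 knockdowns minus NT and for the 2 pairs of knockdowns that share a slide; shaded boxes hold the middle 50% of all genes and the line in each box is their median. Rhox5 lies at -2.16 in Ino80 minus NT and at -2.42 in Ino80 minus Ino80b, and Rhox5, Rhox6 and Rhox9 lie between 0.91 and 1.21 in Ino80c minus NT.

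The 3 members did not follow the same pattern over the arrays. Over 10 arrays, which form 5 groups of 2 and share slides, Rhox6 and Rhox9 had Pearson r = 0.72 and Spearman rho = 0.62, Rhox5 and Rhox9 had r = 0.57 and rho = 0.60, and Rhox5 and Rhox6 had r = 0.03 and rho = 0.13. Without both Ino80 arrays, the farthest from the median for Rhox5, r was 0.85 with Rhox9 and 0.67 with Rhox6. Without both NT arrays, the farthest for Rhox6, r between Rhox6 and Rhox9 was 0.82. The low r of Rhox5 with Rhox6 thus rests on the Ino80 arrays, where Rhox5 was below NT and Rhox6 above it.

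Of the 4 other Rhox genes on the array, Rhox2a and Rhox4e passed the filter and neither was called in any knockdown. Over all genes 12.3%, 6.44%, 6.28% and 0% were called in Ino80, Ino80b, Ino80c and Ino80e cells. For 2 genes, 0 calls is near these shares. At an unadjusted p under 0.05, 1 of the pair passed, Rhox2a in Ino80c cells. Rhox4e, a member of the alpha part of the cluster, was well above background on 10 arrays. Its log2 level was -0.85 and -1.04 on the Ino80 arrays, -0.70 and -0.57 on the Ino80b arrays, 0.07 and -0.49 on the Ino80c arrays, -0.41 and -0.36 on the Ino80e arrays, and -0.68 and -0.59 on the NT arrays. Both Ino80 arrays were the lowest of the 10, as for Rhox5 and for 5.39% of genes tested. The difference from NT was only -0.31 ± 0.19 (SE, limma adjusted p = 0.31). It was 0.00 in Ino80b cells (adjusted p = 0.998), 0.43 in Ino80c cells (adjusted p = 0.18) and 0.25 in Ino80e cells (adjusted p = 0.41), each ± 0.19.

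Rhox2a lay near the detection limit, with a processed signal of 9.06 to 32.0 units, and was well above background on 7 arrays. Its level was -5.61 and -6.53 on the Ino80 arrays, -6.18 and -5.81 on the Ino80b arrays, -5.35 and -4.64 on the Ino80c arrays, -5.42 and -5.76 on the Ino80e arrays, and -6.14 and -6.57 on the NT arrays. Both Ino80c arrays were the highest of the 10, as for the 3 members and for 5.51% of genes tested. The difference was 1.36 ± 0.37 in Ino80c cells (SE, limma adjusted p = 0.068), 0.76 ± 0.37 in Ino80e cells (adjusted p = 0.22), 0.36 ± 0.37 in Ino80b cells (adjusted p = 0.55) and 0.29 ± 0.37 in Ino80 cells (adjusted p = 0.62). Rhox2a passed the filter only through Ino80c and Ino80e cells, where both arrays were well above background. In Ino80, Ino80b and NT cells 1 of 2 arrays was. Those 2 groups are also the ones with its highest levels, so its differences and p-values there, also those below, are a description. Rhox2a was called in Ino80c cells with normexp (adjusted p = 0.023) and with quantile normalization, and in Ino80e cells with normexp (adjusted p = 0.027).

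Rhox3a was well above background on 4 arrays, 1 in each knockdown, and on neither NT array. Its level was -5.37 and -6.17 on the Ino80 arrays, -5.89 and -5.79 on the Ino80b arrays, -6.74 and -4.95 on the Ino80c arrays, -5.35 and -6.07 on the Ino80e arrays, and -6.63 and -7.72 on the NT arrays. Since 1 array of each knockdown was not well above background, and Ino80c replicate 1 lay below NT replicate 1, no fold is given, and the gene was not tested. Rhox11, which is known for expression in the male germ line, was well above background on 1 array, Ino80b replicate 2, and no fold is given.

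**Figure D3:**
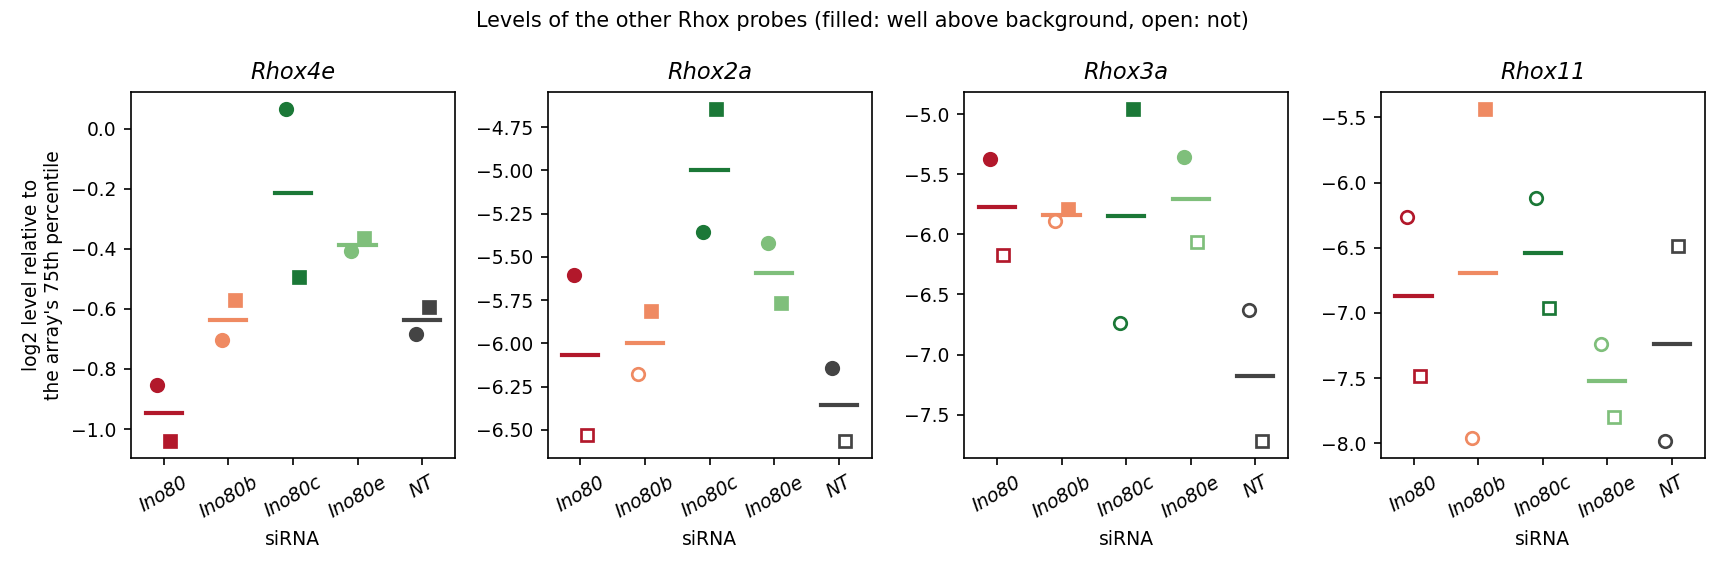
Log2 level of the 4 other Rhox probes, relative to the array's 75th percentile, on each of 10 arrays by siRNA group; filled points are well above background, open points are not, bars are means of 2 arrays, and each panel has its own vertical axis. Rhox4e is measured on all 10 arrays with both Ino80 arrays lowest, Rhox2a on 7, Rhox3a on 4 and Rhox11 on 1.

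The genes tested around the cluster are given as a description. Rhox5 was chosen by differences of these same arrays, and only 69 of the 20663 genes were further below NT in Ino80 cells. That no gene around the cluster was as far below NT as Rhox5 was therefore nearly fixed in advance. Among the 22 genes tested nearest the cluster on X by RefSeq order (10 on either side, and Zbtb33 and Tmem255a, which lie within the span of genes named Rhox), differences in Ino80 cells ran from -0.23 (Xiap, an inhibitor of caspases) to 1.60 (Tmem255a). Of the 20 flanking genes, 1 was called in Ino80 cells (5%, against 12.3% of all genes) and 1 in Ino80c cells (5%, against 6.28%). In Ino80b and Ino80e cells 0 were called, against 6.44% and 0% of all genes, and 5 and 8 passed an unadjusted p under 0.05. Mcts1, a translation re-initiation factor, was higher in Ino80 cells by 0.76 ± 0.19 (SE, adjusted p = 0.045), and Gria3, an AMPA glutamate receptor subunit, was higher in Ino80c cells by 1.28 ± 0.26 (adjusted p = 0.039). Both calls were lost when single arrays were left out, with an adjusted p of up to 0.19 for Mcts1 (without Ino80 replicate 2) and 0.16 for Gria3 (without Ino80c replicate 1). In Ino80c cells the 22 genes ran from 0.05 to 1.28, so all of them, like the 5 Rhox genes, were above 0, where the median of all genes was 0.25. Gm9, the nearest gene tested before the cluster, was 1.15 in Ino80c cells and 0.95 in Ino80e cells.

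**Figure D4:**
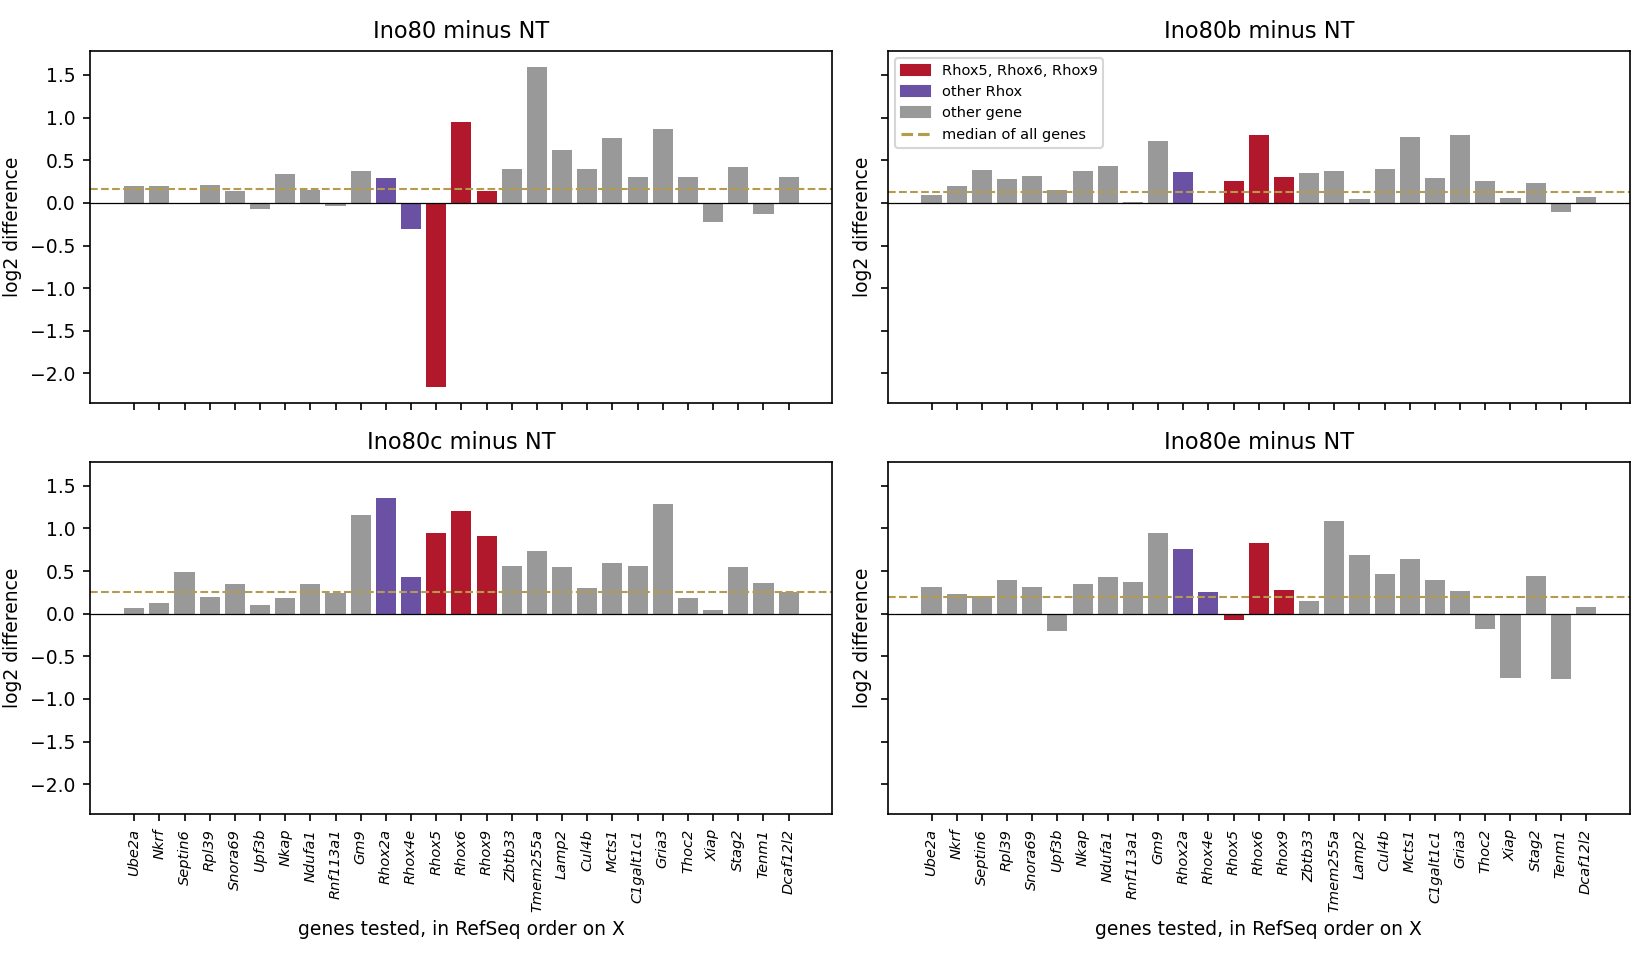
Log2 difference from NT of the tested genes at and around the Rhox cluster, in their RefSeq order on X (evenly spaced, not to distance), in each knockdown; red bars are Rhox5, Rhox6 and Rhox9, purple bars Rhox2a and Rhox4e, grey bars other genes, and the dashed line is the median of all genes. In Ino80 cells Rhox5 at -2.16 is the lowest bar, followed by Rhox4e at -0.31. In Ino80c cells, where the median of all genes is 0.25, no bar is below 0.

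Other X-linked genes were called at shares near those of all genes. Of 716 tested X-linked genes without Rhox in their name, 65 rose and 28 fell in Ino80 cells (13%), 41 rose and 19 fell in Ino80b cells (8.38%), 52 rose and 7 fell in Ino80c cells (8.24%) and 0 were called in Ino80e cells, where 205 passed an unadjusted p under 0.05. These shares stand beside 12.3%, 6.44%, 6.28% and 0% over all genes. The split between higher and lower moved with the scaling: in Ino80b cells 44 were higher and 47 lower in the authors' deposited table, and in Ino80c cells 44 were higher and 44 lower there. With the array median 49 were higher and 36 lower in Ino80 cells and 27 and 8 in Ino80c cells, and with quantile normalization 36 and 12 in Ino80c cells. Under the 75th percentile, their median differences were 0.21, 0.20, 0.35 and 0.23, all within 0.1 of the medians of all genes.

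Genes of DNA methylation, of its removal and of H3K9 methylation were listed because Rhox genes are known to be silenced by these marks. Up to 3 were called in a knockdown. Tet2, which acts in the removal of DNA methylation, was 1 of them in Ino80, Ino80b and Ino80c cells. Of 18 listed genes tested, 1 rose and 2 fell in Ino80 cells (16.7%), 1 rose and 1 fell in Ino80b cells (11.1%), 2 rose and 1 fell in Ino80c cells (16.7%), and 0 were called in Ino80e cells, where 7 passed an unadjusted p under 0.05. Over all genes 12.3%, 6.44%, 6.28% and 0% were called in the same 4 knockdowns. Dnmt3b, a de novo methyltransferase, rose in Ino80 cells by 0.69 ± 0.11 (SE, adjusted p = 0.013), in Ino80b cells by 0.55 ± 0.11 (adjusted p = 0.039) and in Ino80c cells by 0.70 ± 0.11 (adjusted p = 0.026). Dnmt3a, the other de novo enzyme, rose in Ino80c cells by 0.95 ± 0.22 (adjusted p = 0.048).

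Tet2, which oxidises methylated cytosine, fell by 1.84 ± 0.17 (SE) in Ino80 cells (adjusted p = 0.0026), fell by 1.60 ± 0.17 in Ino80b cells (adjusted p = 0.013) and fell by 0.90 ± 0.17 in Ino80c cells (adjusted p = 0.033). In Ino80e cells it differed by -0.07 (adjusted p = 0.82). Trim28, a corepressor that recruits H3K9 methylation, fell in Ino80 cells by 0.84 ± 0.17 (adjusted p = 0.023). Dnmt1, the maintenance methyltransferase, was not called in any knockdown, with differences from -0.31 to -0.24. The Tet2 call in Ino80 cells held without any of the 10 arrays. Leaving out an array took away the Ino80 calls of Dnmt3b (adjusted p up to 0.065, without Ino80 replicate 2) and Trim28 (up to 0.094, without NT replicate 2), and those of Tet2 in Ino80b and Ino80c cells (up to 0.079 without Ino80b replicate 2 and 0.16 without Ino80c replicate 1). The Dnmt3b call was lost without 9 of 10 arrays in Ino80b cells (up to 0.24, without Ino80b replicate 2) and without 7 of 10 in Ino80c cells (up to 0.13, without Ino80c replicate 1). The Dnmt3a call was lost on leaving out any one of the 10 arrays, with an adjusted p of up to 0.20 (without Ino80c replicate 2).

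Germline genes were listed because they are known to be silenced by promoter methylation. Whether they were silenced in these cells was not tested, and each gene tested was well above background on both NT arrays. The mean log2 level in NT cells was 6.29 for Tuba3a, 2.95 for Tex19.1, 1.05 for Mael and 0.87 for Ddx4. It was lower for the other genes tested, from -0.64 for Tdrd1 down to -5.54 for Brdt. Some genes of the list rose. Of 17 tested, 5 rose in Ino80 cells (29.4%), 1 in Ino80b cells (5.88%), 5 in Ino80c cells (29.4%) and 0 in Ino80e cells. In Ino80e cells 8 passed an unadjusted p under 0.05, and 0 of the list fell in any of the 4 knockdowns. Over all genes 12.3%, 6.44%, 6.28% and 0% were called in the same order, so the Ino80b share was near that of all genes. Tdrd1, a Tudor protein of the piRNA pathway, rose by 1.68 ± 0.17 (SE) in Ino80 cells (adjusted p = 0.0039), by 1.29 ± 0.17 in Ino80b cells (adjusted p = 0.016) and by 1.19 ± 0.17 in Ino80c cells (adjusted p = 0.024). Ddx4, the germ cell RNA helicase Vasa, rose by 1.34 ± 0.22 in Ino80 cells (adjusted p = 0.014) and by 1.00 ± 0.22 in Ino80c cells (adjusted p = 0.047). Of these, only the Tdrd1 call in Ino80 cells held without any of the 10 arrays. The highest adjusted p was 0.13 for Tdrd1 in Ino80b cells (without Ino80b replicate 2), 0.12 for Tdrd1 in Ino80c cells (without Ino80c replicate 1), and 0.065 and 0.18 for Ddx4 in Ino80 and Ino80c cells (without Ino80 replicate 2 and without NT replicate 2). The median difference of the list was 0.44, 0.23, 0.56 and 0.40, against 0.17, 0.13, 0.25 and 0.19 for all genes, in Ino80, Ino80b, Ino80c and Ino80e cells.

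Factors reported at the distal promoter of Rhox5 were called in 0 knockdowns, and at an unadjusted p under 0.05 1 passed in Ino80b cells and 1 in Ino80e cells. Over all genes 12.3%, 6.44%, 6.28% and 0% were called in Ino80, Ino80b, Ino80c and Ino80e cells. For 4 genes tested, 0 calls is near these shares. Gabpa, Gabpb1, Sp1 and Sp3 were tested, and in Ino80 cells they differed by -0.05, -0.46, 0.19 and -0.09, with adjusted p from 0.22 to 0.88. Of the 2 listed genes that Rhox5 is known to regulate in testis, Ins2, an insulin gene, was tested. It was higher in Ino80 cells by 0.62 ± 0.14 (SE, adjusted p = 0.030) and by 0.29 to 0.54 without a call in the other knockdowns. This is a single gene, in a knockdown in which 12.3% of all genes were called. The Ino80 call was lost without 8 of 10 arrays, with an adjusted p of up to 0.094 (without Ino80 replicate 2).

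Markers of cell types were called in Ino80, Ino80b and Ino80c cells. In Ino80e cells 0 were called, as were 0 of all 20663 genes tested. The part of the markers in the members' differences was not tested. Fewer cells of a type and less RNA per cell cannot be told apart in these bulk samples. All 9 stem cell markers were well above background on 10 arrays, and their summed log2 level was 8.69 to 8.98 in Ino80 cells, 8.97 to 9.20 in Ino80b cells, 9.18 to 9.21 in Ino80c cells, 9.36 to 9.52 in Ino80e cells and 9.24 to 9.32 in NT cells. Dppa5a gave 54.7% to 67.7% of this sum on each array. Without it, a sum chosen after seeing the data, the level was 7.26 to 7.51 in Ino80 cells and 7.40 to 7.64 in Ino80b cells. It was 7.57 to 7.64 in Ino80c cells, 8.05 to 8.26 in Ino80e cells and 8.03 to 8.18 in NT cells. Of the 9 stem cell markers, 4 fell in Ino80 cells (44.4%), 3 in Ino80b cells (33.3%) and 2 in Ino80c cells (22.2%). In Ino80e cells 0 were called, and 3 passed an unadjusted p under 0.05. The shares over all genes were 12.3%, 6.44%, 6.28% and 0% in the same 4 knockdowns. Nanog, a core pluripotency factor, fell by 1.35 ± 0.20 (SE) in Ino80 cells (adjusted p = 0.011), fell by 1.26 ± 0.20 in Ino80b cells (adjusted p = 0.023) and fell by 1.05 ± 0.20 in Ino80c cells (adjusted p = 0.035). The call in Ino80 cells held without any of the 10 arrays, and those in Ino80b and Ino80c cells reached an adjusted p of 0.12 (without Ino80b replicate 2) and 0.16 (without Ino80c replicate 1).

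Extraembryonic endoderm, a lineage in which Rhox5 is known to be expressed, was the list in which most markers were lower in Ino80 cells. Of 12 tested, 9 fell and 1 rose in Ino80 cells (83.3%), 7 fell in Ino80b cells (58.3%) and 1 rose in Ino80c cells (8.33%). In Ino80e cells 0 were called, and 4 passed an unadjusted p under 0.05. The shares over all genes were 12.3%, 6.44%, 6.28% and 0% in the same 4 knockdowns. Gata6, a transcription factor of primitive endoderm, fell by 3.12 ± 0.19 (SE) in Ino80 cells (adjusted p = 0.0016) and fell by 1.94 ± 0.19 in Ino80b cells (adjusted p = 0.012). Rhox5 differed by -2.16 ± 0.21 in Ino80 cells and by 0.25 ± 0.21 in Ino80b cells. Sox17, another endoderm factor, fell by 2.20 ± 0.26 in Ino80 cells (adjusted p = 0.0053) and fell by 1.57 ± 0.26 in Ino80b cells (adjusted p = 0.026). Both Ino80 calls held without any of the 10 arrays. The Ino80b calls reached an adjusted p of 0.095 for Gata6 and 0.17 for Sox17 without Ino80b replicate 2. The summed level of the list was 4.10 to 4.44 in Ino80 cells, 3.86 to 4.27 in Ino80b cells, 4.01 to 4.27 in Ino80c cells, 4.26 to 4.32 in Ino80e cells and 4.38 to 4.45 in NT cells, and the defining marker Afp was well above background on 0 of 10 arrays. Sparc, a matrix protein that was not called in any knockdown, gave 59% to 93.1% of this sum on each array. Without it, a sum chosen after seeing the data, the level was 0.58 to 0.64 in Ino80 cells, 1.37 to 1.41 in Ino80b cells, 2.04 to 2.23 in Ino80c cells, 2.71 to 2.97 in Ino80e cells and 2.19 to 2.48 in NT cells.

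Markers of trophoblast, where Rhox6 and Rhox9 are known to be expressed, were called in Ino80 and Ino80c cells, and all calls were rises. Of 8 tested markers, 2 rose in Ino80 cells (25%, against 12.3% of all genes), 0 were called in Ino80b cells, 1 rose in Ino80c cells (12.5%, against 6.28% of all genes) and 0 were called in Ino80e cells, and 1 in Ino80b and 1 in Ino80e cells passed an unadjusted p under 0.05. Cdx2, a trophectoderm transcription factor, rose by 0.69 ± 0.12 (SE) in Ino80 cells (adjusted p = 0.015) and by 0.56 ± 0.12 in Ino80c cells (adjusted p = 0.043). Krt7, a keratin of simple epithelia and trophoblast, rose by 1.16 ± 0.30 in Ino80 cells (adjusted p = 0.047). The Cdx2 call was lost without 3 of 10 arrays in Ino80 cells (adjusted p up to 0.061, without Ino80 replicate 2) and without 9 of 10 in Ino80c cells (up to 0.17, without Ino80c replicate 1). The Krt7 call was lost on leaving out any one of the 10 arrays (up to 0.20, without Ino80 replicate 2). The summed level was 0.76 to 0.97 in Ino80 cells, 0.52 to 0.65 in Ino80b cells, 0.36 to 0.43 in Ino80c cells, 0.15 to 0.47 in Ino80e cells and 0.01 to 0.19 in NT cells, and Elf5, a defining trophoblast marker, was well above background on 0 arrays. Krt7 gave 47.2% to 76.5% of this sum on each array. Without it, again a sum chosen after seeing the data, the ranges of 3 knockdowns spanned that of NT and Ino80e lay below it, with -1.11 to -0.55 in Ino80 cells, -1.24 to -0.79 in Ino80b cells, -1.06 to -0.69 in Ino80c cells, -1.29 to -1.06 in Ino80e cells and -1.01 to -0.91 in NT cells.

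Of 8 tested fibroblast markers, which could come from feeder cells, 4 rose in Ino80 cells (50%), 2 in Ino80b cells (25%) and 2 in Ino80c cells (25%). In Ino80e cells 0 were called, and 0 passed an unadjusted p under 0.05. The shares over all genes were 12.3%, 6.44%, 6.28% and 0% in the same 4 knockdowns. Dcn, a matrix proteoglycan, rose by 2.30 ± 0.32 (SE) in Ino80 cells (adjusted p = 0.0085), by 1.40 ± 0.32 in Ino80b cells (adjusted p = 0.049) and by 2.08 ± 0.32 in Ino80c cells (adjusted p = 0.026). Without Ino80 replicate 2, Ino80b replicate 2 or Ino80c replicate 1 the adjusted p was 0.052, 0.26 and 0.12 in the same 3 knockdowns. The summed level was 0.99 to 1.27 in Ino80 cells, 0.89 to 0.96 in Ino80b cells, 0.93 to 0.99 in Ino80c cells, 0.88 to 1.00 in Ino80e cells and 0.65 to 0.76 in NT cells. Thy1 gave 36.1% to 60.8% of this sum on each array. Without it, a sum also chosen after seeing the data, the level was 0.35 to 0.57 in Ino80 cells and 0.07 to 0.09 in Ino80b cells. It was -0.07 to 0.07 in Ino80c cells, -0.31 to -0.29 in Ino80e cells and -0.60 to -0.50 in NT cells. Lum, a marker of fibroblast matrix, was well above background on 1 array.

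The genes whose levels ran most like each member over the 10 arrays were taken as the 5 of highest Pearson r among 17430 genes measured on every array and not named Rhox. The points are 5 groups of 2 arrays that share slides, and the values are a description. For Rhox5 these were Cox7b2, a subunit of cytochrome c oxidase (r = 0.972), Mab21l3 (0.969), Ccdc113, a coiled-coil protein of cilia (0.966), Ube1y1, a ubiquitin-activating enzyme gene (0.965), and Wdr64 (0.965). In Ino80 cells they differed from NT by -0.63 (Mab21l3) to -1.79 (Ube1y1), less than the -2.16 of Rhox5. Without both Ino80 arrays their r with Rhox5 was 0.75 to 0.88.

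For Rhox6 the 5 genes were C230002E15Rik, Hook1, which links vesicles to microtubules, C78339, Lpp, a LIM protein of focal adhesions, and Pparg, a nuclear receptor, with r = 0.968 to 0.975. All 5 were higher than NT in all 4 knockdowns, by 0.33 (C78339 in Ino80b cells) to 1.56 (C230002E15Rik in Ino80c cells). For Rhox9 they were Mastl, a mitotic kinase, Carmil1, a regulator of actin capping, AK032303, Bpifb2 and Parl, a mitochondrial protease, with r = 0.928 to 0.948. AK032303, the only X-linked transcript of the 15, was 1.39 above NT in Ino80c cells and between -0.06 and 0.19 in the other 3 knockdowns. Without both Ino80c arrays the r of these genes with Rhox9 was 0.56 to 0.87.

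**Figure D5:**
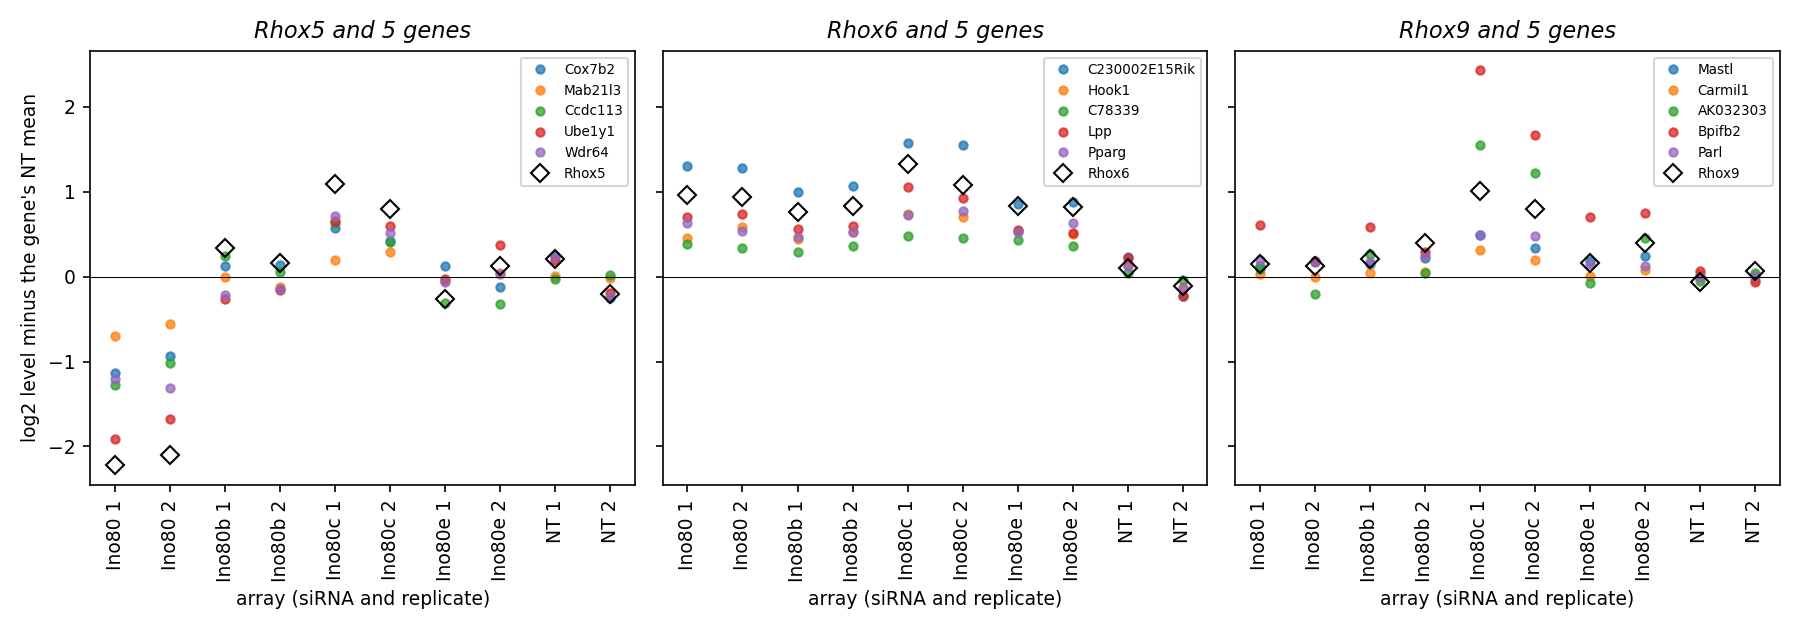
Log2 level of Rhox5, Rhox6 and Rhox9 (open diamonds) and of the 5 genes of highest Pearson r with each (coloured points) on 10 arrays, as the difference from the gene's own NT mean; the arrays run along the horizontal axis by siRNA and replicate. The genes like Rhox5 are lowest on both Ino80 arrays, those like Rhox6 are above NT on all 8 knockdown arrays, and those like Rhox9 peak on the Ino80c arrays.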

How the data were processed

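Agilent 1-colour arrays were used, quantified with Feature Extraction 9.5.3.1 per the file headers; the labels name the dye Cy5 and the files hold the green channel. The deposited processed signal is an intensity, background-subtracted and detrended within the array per the file headers. The log2 values in the authors' deposited table equal the log2 mean signal plus a constant per array (column medians 6.76 to 6.87). How these constants were set, and so the scaling between arrays, stays unknown.

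Control spots and 31 probes with feature outlier flags were left out. The log2 processed signal was reduced by each array's 75th percentile (666 to 940 intensity units). Probes were kept where both arrays of some group were well above background, the brightest probe stood for a gene, and 22951 probes were named through their accession (RefSeq, GRCm38.p6). The 10 arrays were fitted with limma 3.58.1 in R 4.3.3 (lmFit, eBayes, group as the only term, 5 residual degrees of freedom). P-values are two-sided, adjusted by Benjamini-Hochberg over 20663 genes, and called under 0.05. No spot was saturated, and the number of arrays limits the precision. The fit was tested on simulated data.

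The members and lists were chosen with earlier results of these data known. Genes named are the members, all other Rhox genes, listed genes called in a knockdown (at most 6 a list), the 5 genes most like each member, the 10 tested genes on either side of the cluster, and the targeted subunits. Of the lists, examples are given. Alternatives were other background corrections, scalings, filters, probe rules and priors, the deposited table, the compared arrays alone, the replicate number as a block and leaving out each array.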

Additional observations from a re-analysis of the deposited data

How the results depend on the processing

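With 2 arrays a group, precision is limited by the arrays, and for Rhox6 by a signal near background. Rhox5 kept its direction and size in Ino80 cells under every alternative run (-2.37 to -1.96 without single arrays, -2.26 to -2.10 otherwise). Rhox6 was above NT in each alternative that gave a value; it gave none when spots with a local background flag were left out too, a setting chosen after seeing the data. Counts of called genes moved widely, and the cause was not tested.

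Members beyond the replicate spread: with normexp Rhox6 was 0.57 (Ino80), 0.54 (Ino80b), 0.85 (Ino80c) and 0.59 (Ino80e). With the authors' deposited table Rhox6 was 0.60, 0.45, 0.76 and 0.43 in the same knockdowns, Rhox5 0.73 (Ino80c) and -0.29 (Ino80e), and Rhox9 0.14 (Ino80b), 0.64 (Ino80c) and 0.077 (Ino80e). With the array median Rhox6 was 1.08 (Ino80c) and 0.72 (Ino80e), and Rhox9 0.78 (Ino80c). Without single arrays, Rhox5 was 0.05 to 0.46 (Ino80b), 0.74 to 1.15 (Ino80c) and -0.28 to 0.13 (Ino80e). Rhox6 was 0.84 to 1.05 (Ino80), 0.69 to 0.91 (Ino80b), 1.09 to 1.33 (Ino80c) and 0.72 to 0.93 (Ino80e). Rhox9 was 0.07 to 0.20 (Ino80), 0.21 to 0.40 (Ino80b), 0.80 to 1.02 (Ino80c) and 0.17 to 0.40 (Ino80e).

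Called genes, with X-linked genes after them: normexp gave 3840 and 154 (Ino80), 3286 and 134 (Ino80b), 4252 and 181 (Ino80c), and 5422 and 176 (Ino80e). The authors' deposited table gave 144 X-linked genes (Ino80), 2328 and 91 (Ino80b), 2220 genes (Ino80c), and 1107 and 32 (Ino80e). The array median gave 773 and 35 (Ino80c). No filter gave 1286 and 44 (Ino80), 252 and 14 (Ino80b), and 142 and 7 (Ino80c). A probe measured on all 10 arrays gave 2275 and 93 (Ino80b), 2245 and 99 (Ino80c), and 504 and 16 (Ino80e). Trend and robust prior gave 149 X-linked genes (Ino80), 2830 and 117 (Ino80b), 2530 and 120 (Ino80c), and 1701 and 48 (Ino80e). The 4 compared arrays alone gave limma 0 calls in each knockdown, with 3860 (Ino80), 4294 (Ino80b), 4682 (Ino80c) and 3930 (Ino80e) genes at an unadjusted p under 0.05. Without single arrays the counts were 560 to 3296 and 23 to 127 (Ino80), 0 to 2855 and 0 to 114 (Ino80b), 0 to 3147 and 0 to 134 (Ino80c), and 0 to 587 and 0 to 19 (Ino80e); the lowest came without Ino80 replicate 2, Ino80b replicate 1 (4482 genes unadjusted) and Ino80c replicate 2 (4157), the highest without NT replicate 1. Of the other Rhox genes, 1 was called, Rhox2a, with normexp (Ino80c and Ino80e) and quantile normalization (Ino80c), and 0 without single arrays.

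The replicate block gave 4885 and 184 (Ino80), 3588 and 149 (Ino80b), 3714 and 156 (Ino80c), and 1973 and 66 (Ino80e). Deviations of same-numbered arrays correlated at 0.0041 to 0.32, over 0.1 in 8 of 10 pairs of groups. Same-numbered arrays thus shared part of their deviation, and the main fit has no term for it. What the replicate number stands for is not stated and was not tested.

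Directions turned for Rhox2a in Ino80 cells (-0.17 without Ino80 replicate 1 to 0.75 without Ino80 replicate 2), and for Rhox4e in Ino80b cells (main value 0.00) with quantile normalization (-0.00115), the array median (-0.065), the authors' deposited table (-0.11), without Ino80b replicate 2 (-0.066) and without NT replicate 1 (-0.044), against 0.068 without Ino80b replicate 1.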
